A study of Homo sapiens with 4 samples.

Results

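The genes described here were 50 Wnt ligands, receptors and modulators, out of 27193 genes named on the array. The rule that chose them used names and not values, but it was set with earlier results of these data known. It took all genes named WNT or FZD with a number, DKK1 to DKK4, the SFRP genes, LRP5, LRP6 and the TCF7 genes. AXIN1, AXIN2, LEF1, CTNNB1, APC, LGR5, RNF43 and ZNRF3 were taken as well. The 50 genes were covered by 116 of the 43118 spots other than controls. Of the 50 genes, 39 were measured well enough to be tested and 11 were not.

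Expression was measured in MCF10A.B2 cells, a line of human breast epithelial cells (MCF10A) that carries a form of HER2 which the crosslinker AP1510 activates. A control group of 2 samples was compared with 2 samples in which this line also expressed a shRNA targeting PAK1 (PAK1 shRNA), which addresses the genes that differ when the kinase PAK1 is reduced. All 4 samples were grown with 5% horse serum, starved of serum for 3 h and treated with AP1510 for 15 min, and each was hybridized in a single colour to an Agilent whole genome array. The shRNA is tetracycline inducible, and the labels call the first group control and PAK1 wild type without saying whether it carried the uninduced shRNA. No array with a non-targeting shRNA was analysed here, so loss of PAK1 and a response to the shRNA itself cannot be told apart. The sample labels give no origin for the replicates, while the series description speaks of cells derived from tumors, so p-values measure only the spread between these samples, which may be technical.

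Wnt proteins are secreted lipid-modified ligands that bind Frizzled receptors and the coreceptors LRP5 and LRP6 on the cell surface. In cells without a Wnt signal, a destruction complex that contains APC and AXIN1 marks beta-catenin (CTNNB1) for degradation, and binding of a Wnt releases beta-catenin to act with the TCF/LEF factors in the nucleus. In the mammary gland the pathway is known for its part in basal and stem cell behaviour, and some Wnt ligands act through Frizzleds without beta-catenin.

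Values below are normalized log2 intensities, so that a difference of 1 is a 2-fold change, and levels are comparable between arrays for 1 probe but not between probes. A gene was called higher or lower when limma gave it a p under 0.05 after adjustment over all 21990 genes tested by the Benjamini-Hochberg method. A gene was tested when its probe was well above background, by the scanner software's own flag, on both arrays of at least 1 group. PAK1 itself was at 11.19 and 11.27 on the control arrays and at 10.44 and 10.51 on the PAK1 shRNA arrays. This was 59.2% of the control level, with a log2 fold change of -0.76 (SE, the standard error, 0.08, adjusted p = 0.00018 by limma), so the message of the targeted gene was lower but still present. Between 78.9% and 83.2% of probes were well above background per array, all arrays lay on 1 slide, and the number of arrays limits the precision. In bulk samples such as these, fewer cells of a type and less RNA per cell cannot be told apart.

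Of the 39 Wnt genes tested, PAK1 shRNA cells had 10 higher and 19 lower, and 10 did not pass the threshold. The share called was 74.4%, beside 62.5% of all genes tested. Over all genes 30.6% were higher and 32% lower. Wnt genes had a median log2 fold change of -0.20, and all genes together 0.02. Among the 39, 12 changed by 2-fold or more, 4 higher and 8 lower, beside 17.9% of all genes in either direction. For 33 of the 39 genes the PAK1 shRNA arrays were both above or both below the control arrays, as for 82.1% of all genes. The set was mixed in direction, and ligands, Frizzleds, antagonists, receptor turnover genes and destruction complex genes each held called genes on both sides.

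Promoter sequences are given for the genes whose start region held a match to the TCF/LEF core (CTTTG, then A or T at each of the next 2 positions), because the TCF/LEF factors are the DNA-binding end of the pathway and members of the set themselves. RefSeq promoters (GRCh38.p14), which run from 250 bases before to 50 bases after a start site, were given for 34 of the 50 genes, 42 start sites in all. The core was searched on both strands, and no match overlapped another. It was found at 4 of the 42 start sites, while 13.8% of 35116 promoters held it. DKK1, the gene with the largest rise in the set, held it at 1 start site in 2 places, whose first bases lie at positions -95 and -76 from the start. WNT3 held it on the strand of the gene at position 20 after the start, and TCF7 at 1 of its start sites on the opposite strand at position -50. TCF7L2 held it at 1 of its start sites, on the strand of the gene, at position -133. The 250 bases before the DKK1 start (chr10:52314031-52314280, plus strand) and the 30 bases around each other match (WNT3 at chr17:46818655-46818684, minus strand; TCF7 at chr5:134123557-134123586, plus strand; TCF7L2 at chr10:113126489-113126518, plus strand) are written 5′ to 3′ along the gene, with the matched letters in capitals.
DKK1: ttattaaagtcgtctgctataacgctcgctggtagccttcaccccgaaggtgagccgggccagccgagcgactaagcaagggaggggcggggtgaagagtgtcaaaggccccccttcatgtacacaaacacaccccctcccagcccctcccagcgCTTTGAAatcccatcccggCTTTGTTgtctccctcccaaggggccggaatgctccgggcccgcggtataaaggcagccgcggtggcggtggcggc
WNT3: tctcaagtggaCTTTGTTccaactattggg
TCF7: ggccccactggAACAAAGgaggagagaggc
TCF7L2: aaaatatcaggCTTTGTTcttttgattgaa
These 4 genes did not move together: DKK1 was higher, and WNT3 and TCF7 were lower. TCF7L2 did not pass the threshold on the probe used, while its other probes gave log2 fold changes of -0.24 and -0.26. The core of the interferon response element (GAAA, any 2 bases, then GAAA) was searched in the same way and was found at 0 of the 42 start sites, while 3.6% of all promoters held it. A match is a description of these letters and not a binding site, and its absence speaks only of this window.

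Among the secreted ligands, 13 of 19 were tested, with a median log2 fold change of -0.39. Of the 13, 2 were higher and 7 were lower, beside 30.6% higher and 32% lower of all genes. WNT3A, a ligand of the beta-catenin branch, was at 10.98 and 10.90 on the control arrays and at 8.40 and 8.26 on the PAK1 shRNA arrays. The log2 fold change was -2.61 (SE 0.08, adjusted p = 1.7e-06 by limma), or 16.4% of the control level. That fall was seen by 1 probe only. The other WNT3A probe lay a little upstream on the same chromosome (chr1:228247946-228248005 against chr1:228248893-228248952, hg19, both plus strand) and read 9.5 and 9.37 in control cells against 9.56 and 9.43 in PAK1 shRNA cells, a log2 fold change of 0.06 (SE 0.09). The groups were thus far apart on the first probe and overlapped on the second, and with the mean over probes WNT3A was at its smallest change over the alternatives, -1.27.

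WNT3, the nearest relative of WNT3A and also a ligand of the beta-catenin branch, was at 9.67 and 9.86 on the control arrays and at 7.55 and 7.37 on the PAK1 shRNA arrays. The log2 fold change was -2.30 (SE 0.10, adjusted p = 5.6e-06 by limma), read by a single probe at chr17:44841704-44841763 (hg19, minus strand). WNT10A, known for its role in skin and tooth development, was at 9.39 and 9.17 in control cells and at 7.90 and 7.80 in PAK1 shRNA cells. It fell by 1.43 on the log2 scale (SE 0.10, adjusted p = 3.5e-05 by limma). On each of these genes both PAK1 shRNA arrays lay below both control arrays by far more than arrays of a group differed.

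The remaining ligands that fell did so by less than 2-fold. WNT5A and WNT5B, known mostly for signalling without beta-catenin, had log2 fold changes of -0.69 and -0.72. WNT5B was at 7.45 and 7.50 in control cells against 6.74 and 6.76 in PAK1 shRNA cells, and its change ranged from -1.27 with the scanner's processed signal scaled to its 75th percentile to -0.39 with normexp fitted on all spots. WNT5A was at 9.74 and 9.91 against 8.83 and 9.44, so that its PAK1 shRNA arrays differed from each other nearly as much as from the control arrays. Its adjusted p of 0.018 became 0.051 without control replicate 1, with a log2 fold change of -0.77, and 0.098 without control replicate 2, with -0.60. Without PAK1 shRNA replicate 1 the WNT5A value was -0.38 and without PAK1 shRNA replicate 2 it was -0.99, both past the threshold. WNT10B and WNT6 had log2 fold changes of -0.51 (adjusted p = 0.0023 by limma) and -0.39 (adjusted p = 0.0057 by limma).

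Both ligands that were higher changed little. WNT7B was at 7.27 and 7.54 in control cells and at 8.16 and 7.83 in PAK1 shRNA cells, a log2 fold change of 0.59 (SE 0.14, adjusted p = 0.0096 by limma). Without control replicate 1 it was 0.45 and no longer passed (adjusted p = 0.058). The other WNT7B probes gave 0.01 and 0.10, and the array files list a transcript of WNT7A beside that of WNT7B for the probe used, so its signal may come from either gene. WNT7A, measured by a probe of its own, was at 7.21 and 7.57 in control cells and at 7.90 and 7.62 in PAK1 shRNA cells. It missed the threshold at 0.37 (adjusted p = 0.067 by limma), which it passed without control replicate 2 (0.55, adjusted p = 0.022) and without PAK1 shRNA replicate 2 (0.51, adjusted p = 0.043). Without each array in turn the WNT7A value lay between 0.19 and 0.55. The probe used for WNT7B (chr22:46318943-46319002, hg19, minus strand) and the one of the others with the log2 fold change of 0.01 (chr22:46372571-46372630, minus strand) are shown because they were designed for the same gene and gave different results.
WNT7B, probe used: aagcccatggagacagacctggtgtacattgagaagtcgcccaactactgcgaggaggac
WNT7B, other probe: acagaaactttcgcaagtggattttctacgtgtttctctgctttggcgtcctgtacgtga
WNT2B was at 6.53 and 6.62 against 6.92 and 6.96, a log2 fold change of 0.37 (adjusted p = 0.0051 by limma) that reached 1.20 when the scanner's processed signal, scaled to its 75th percentile, replaced both the background step and the quantile normalization. Of the ligands that did not pass, WNT4 stood at 0.03 and WNT9B at -0.06. WNT1 stood at 0.13, with both groups overlapping.

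Some Wnt genes lie beside each other in the genome, and the neighbours named here differed in the size of their change or in their call. On chromosome 2, WNT6 (probe at chr2:219738852-219738911) and WNT10A (chr2:219758393-219758452), both on the plus strand of hg19, were both lower. Their log2 fold changes were -0.39 and -1.43. On chromosome 17, WNT3 fell by 2.30 on the log2 scale while the probe of its neighbour WNT9B (chr17:44952629-44952688, plus strand) read 6.61 and 6.70 against 6.53 and 6.66, groups that overlapped. On chromosome 12, WNT10B (chr12:49359437-49359496, minus strand) was lower and WNT1 (chr12:49376278-49376337, plus strand) did not pass. The differences between neighbours were not tested.

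**Figure D1:**
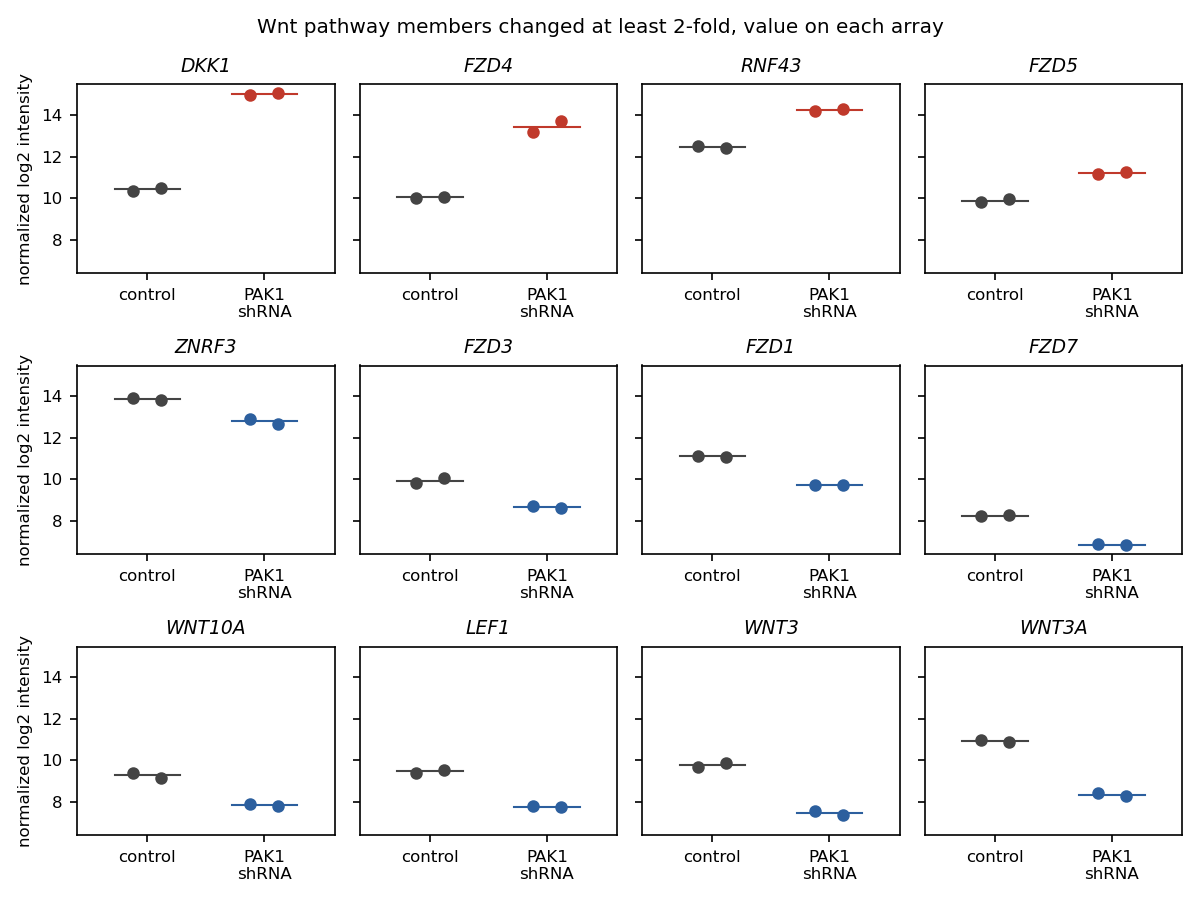
Normalized log2 intensity (vertical axis, shared by all panels) of the 12 Wnt genes called with a change of at least 2-fold, in control and PAK1 shRNA cells. Each point is 1 array and each line the mean of 2 arrays, and levels are to be compared within a panel only. DKK1, FZD4, RNF43 and FZD5 were higher and the other 8 were lower. The groups overlapped in no panel, nor in any of the 29 called Wnt genes, and they were apart for 82.1% of all genes. Choosing called genes with a large change favours such a separation.

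The Frizzled receptors, which bind Wnts through a cysteine-rich outer domain, were all measured. Of these 10 genes, 5 were higher and 4 were lower, beside 30.6% higher and 32% lower of all genes. The median log2 fold change of the 10 was 0.05. FZD4, the receptor for Norrin as well as for Wnts, was at 10.03 and 10.07 on the control arrays and at 13.20 and 13.72 on the PAK1 shRNA arrays. The log2 fold change was 3.41 (SE 0.16, adjusted p = 7.5e-06 by limma), or 10.6-fold, and it stayed between 3.13 and 3.67 under all alternatives run. The spread between its PAK1 shRNA arrays was wide but small beside the change. The FZD4 probe lies at chr11:86656800-86656859 (hg19, minus strand).

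FZD5, the closest relative of FZD8, was at 9.82 and 9.96 in control cells and at 11.18 and 11.26 in PAK1 shRNA cells, a log2 fold change of 1.33 (SE 0.08, adjusted p = 2.2e-05 by limma). FZD8 was at 9.41 and 9.52 against 10.06 and 10.31, a smaller rise of 0.72 (adjusted p = 0.00099 by limma). FZD2 was at 12.17 and 11.94 against 12.94 and 13.11, a rise of 0.97 (adjusted p = 0.00027 by limma), just under 2-fold. FZD9, at 7.25 and 7.47 against 7.61 and 7.71, had a log2 fold change of 0.30. FZD9 no longer passed without control replicate 1 (0.19, adjusted p = 0.14), without PAK1 shRNA replicate 1 (0.35, adjusted p = 0.06) or without PAK1 shRNA replicate 2 (0.25, adjusted p = 0.15).

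FZD1 and FZD7, which are close relatives of FZD2, went the other way. FZD1 was at 11.14 and 11.09 in control cells and at 9.71 on both PAK1 shRNA arrays, a log2 fold change of -1.40 (SE 0.07, adjusted p = 9.9e-06 by limma). FZD7, a receptor described in mammary basal cells, was at 8.22 and 8.28 against 6.88 and 6.81, a log2 fold change of -1.41 (SE 0.07, adjusted p = 1.2e-05 by limma) that ranged from -2.19 to -0.81 between the same settings. FZD3, best known from axon guidance, was at 9.82 and 10.06 against 8.70 and 8.61, a log2 fold change of -1.28 (SE 0.10, adjusted p = 5.9e-05 by limma). Within this trio of relatives the receptor FZD2 thus rose while FZD1 and FZD7 fell, each by more than the arrays of a group differed. FZD10 fell by 0.48 on the log2 scale (adjusted p = 0.0022 by limma). FZD6, at 13.59 and 13.55 against 13.40 and 13.35, had a log2 fold change of -0.20 and an adjusted p that rounds to 0.05 and lay above the threshold, although its groups did not overlap.

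Both coreceptors were lower by less than 2-fold. LRP6 was at 11.84 and 11.95 in control cells and at 11.57 and 11.48 in PAK1 shRNA cells, a log2 fold change of -0.37 (SE 0.08, adjusted p = 0.0062 by limma). LRP5 was at 11.14 on control array 2 and at 10.63 and 10.46 on the PAK1 shRNA arrays, a log2 fold change of -0.59 (SE 0.11, adjusted p = 0.0057 by limma). Its spot was flagged on control array 1 and left out, so the LRP5 value rests on 3 arrays.

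Of the 8 secreted antagonists, 4 were tested, and they held the largest change of the set. DKK1, which blocks the pathway by binding LRP5 and LRP6, was at 10.36 and 10.50 on the control arrays and at 14.97 and 15.08 on the PAK1 shRNA arrays. The log2 fold change was 4.59 (SE 0.09, adjusted p = 3.9e-07 by limma), or 24.1-fold, and it lay between 4.36 and 4.71 under all alternatives run. The single DKK1 probe lies at chr10:54076687-54076746 (hg19, plus strand) and was not saturated on any array. The other measured DKK genes did not share the change. DKK2 read between 6.41 and 6.60 and passed the filter through the PAK1 shRNA arrays, since it was well above background on 1 of the 2 control arrays, and its log2 fold change was 0.16 (adjusted p = 0.1 by limma). DKK3 had -0.12 (adjusted p = 0.19 by limma). SFRP1, a decoy that binds Wnts, was at 15.14 and 15.10 in control cells and at 14.92 and 14.75 in PAK1 shRNA cells. This was a log2 fold change of -0.29 (SE 0.09, adjusted p = 0.023 by limma), and it was -0.08 with an adjusted p of 0.45 under cyclic loess. SFRP1 also no longer passed without control replicate 1 (-0.27, adjusted p = 0.083), without control replicate 2 (-0.31, adjusted p = 0.057) or without PAK1 shRNA replicate 2 (-0.21, adjusted p = 0.14).

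**Figure D2:**
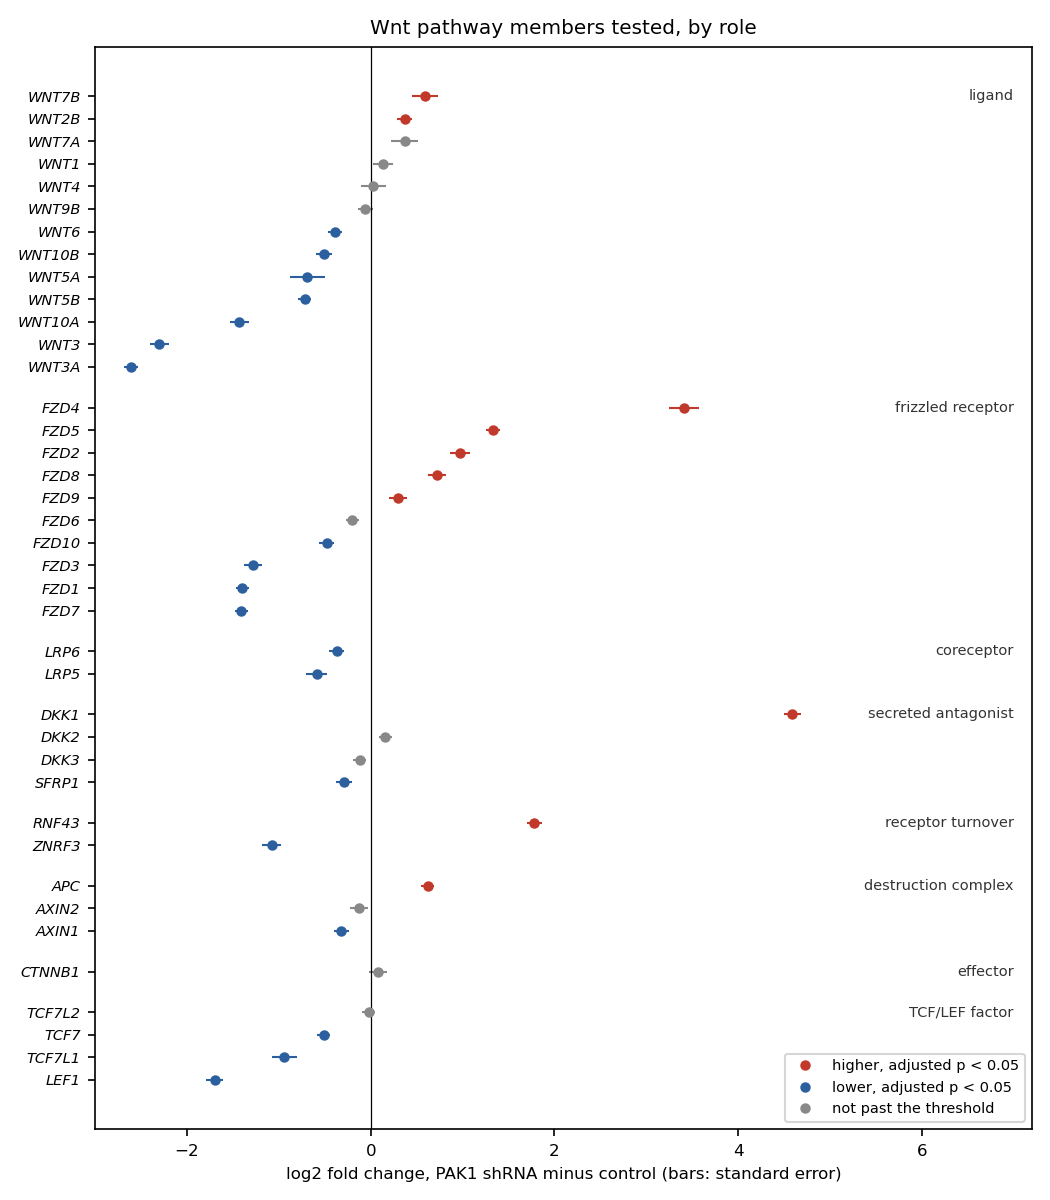
Log2 fold change (horizontal axis, PAK1 shRNA minus control) of each of the 39 Wnt genes tested, grouped by role, with the standard error from limma as bars. Red points were higher and blue points lower at an adjusted p under 0.05, and grey points did not pass. DKK1 at 4.59 and FZD4 at 3.41 lie to the right of the rest, WNT3A at -2.61 and WNT3 at -2.30 to the left.

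RNF43 and ZNRF3 are related membrane ubiquitin ligases that remove Frizzleds from the cell surface, and they moved in opposite directions. RNF43 was at 12.52 and 12.41 in control cells and at 14.21 and 14.29 in PAK1 shRNA cells, a log2 fold change of 1.78 (SE 0.08, adjusted p = 6.1e-06 by limma). ZNRF3 was at 13.93 and 13.82 against 12.90 and 12.69, a log2 fold change of -1.08 (SE 0.10, adjusted p = 0.0001 by limma). The second ZNRF3 probe gave nearly the same change, -1.01, from 10.51 and 10.34 to 9.49 and 9.32. The groups did not overlap on any of these probes. LGR5, a receptor for R-spondins, which protect Frizzleds from these ligases, was not tested. It read 8.28 on control array 1 but 5.88, 6.11 and 6.01 on the other arrays, and was well above background on the first of these only.

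Among the genes of the destruction complex, APC was higher and AXIN1 lower, both by less than 2-fold. APC, the scaffold that holds beta-catenin, was at 9.73 and 9.69 in control cells and at 10.38 and 10.29 in PAK1 shRNA cells, a log2 fold change of 0.62 (adjusted p = 0.00043 by limma). A second APC probe, spotted 10 times on each array and designed on another part of the gene (chr5:112180822-112180881 against chr5:112103018-112103077, hg19, plus strand), gave -0.03, from 6.80 and 6.83 to 6.76 and 6.81. AXIN1 fell by 0.32 on the log2 scale (adjusted p = 0.0099 by limma), and without PAK1 shRNA replicate 1 its value was -0.29 and no longer passed (adjusted p = 0.062). AXIN2, which is both a brake on the pathway and one of its most general target genes, read between 6.35 and 6.63 on its used probe, and its log2 fold change of -0.13 did not pass (adjusted p = 0.27 by limma). Its other probe read 6.45 and 6.54 against 6.24 and 6.35, groups that did not overlap. That log2 fold change was -0.21 (adjusted p = 0.075 from limma over all probes). Both AXIN2 probes read as low as genes that were not tested, so they say little about a change. The message of CTNNB1, which encodes beta-catenin, was at 13.33 and 13.59 against 13.51 and 13.57, a log2 fold change of 0.08 (adjusted p = 0.52 by limma), and its second probe gave 0.02.

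Of the 4 TCF/LEF factors, 3 were lower and none was higher, beside 32% lower and 30.6% higher of all genes. The 4 factors had a median log2 fold change of -0.72. LEF1 was at 9.38 and 9.55 on the control arrays and at 7.79 and 7.75 on the PAK1 shRNA arrays. It fell by 1.70 on the log2 scale (SE 0.09, adjusted p = 9.6e-06 by limma), to 30.8% of the control level. TCF7L1, which acts mostly as a repressor, was at 8.07 and 7.96 against 6.88 and 7.28, a log2 fold change of -0.94 (SE 0.14, adjusted p = 0.001 by limma). TCF7 had -0.51 (adjusted p = 0.0011 by limma), with -0.30 on its second probe. TCF7L2 was at 8.56 and 8.49 against 8.53 and 8.48 on the probe used (-0.02), while the other TCF7L2 probes, which lie further along the gene (chr10:114925978-114926037 and chr10:114911485-114911544 against chr10:114724321-114724380, hg19, plus strand), gave -0.24 and -0.26. On both of these the adjusted p was under the threshold (0.027 and 0.02 from limma over all probes), so the call for TCF7L2 depends on the probe.

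The 11 genes that were not tested were the ligands WNT2, WNT8A, WNT8B, WNT9A, WNT11 and WNT16, the antagonists DKK4, SFRP2, SFRP4 and SFRP5, and LGR5. Of these, 6 were well above background on 0 of the 4 arrays, while WNT8A, WNT9A, WNT11, SFRP2 and LGR5 were so on 1 or 2. LGR5 aside, their values lay between 5.92 and 7.09, the highest being that of WNT8A on PAK1 shRNA array 2, against 6.15, 6.20 and 6.26 on the other arrays. No difference between the groups was tested in these genes. Of the 39 genes tested, 38 were well above background on all 4 arrays.

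Beside the 50 genes, 93 further genes of the pathway were listed by function from general knowledge. Of the 85 tested, 27 were higher, 31 were lower and 27 did not pass, with a median log2 fold change of -0.08, beside the 30.6% higher and 32% lower of all genes. In the handling of ligands, PORCN, which adds the lipid to Wnts, and WLS, which carries them to the surface, were both lower, with log2 fold changes of -0.36 and -0.48. NOTUM was not tested.

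Genes that act with the secreted antagonists included the largest falls of these lists. KREMEN1, a membrane partner of DKK1, was at 12.63 and 12.53 in control cells and at 8.67 and 9.26 in PAK1 shRNA cells, a log2 fold change of -3.61 (SE 0.18, adjusted p = 9.4e-06 by limma). A second KREMEN1 probe gave -1.89, and the remaining probe had no value to fit. KREMEN2 fell by 1.27 on the log2 scale, from 12.36 and 12.30 to 11.12 and 10.99. Both Kremen genes were lower, as were LRP5 and LRP6, beside 32% lower of all genes. A link between these falls and the rise of DKK1 was not tested. APCDD1, a membrane-bound inhibitor of Wnt signalling, was at 10.84 and 10.47 against 7.34 and 7.26, a log2 fold change of -3.36 (SE 0.13, adjusted p = 3.1e-06 by limma). SOST, which encodes the LRP-binding antagonist sclerostin, had -1.17, with a range from -2.51 to -0.63 over the alternatives.

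Among other receptors and membrane regulators, 3 of the 9 tested were higher and 3 lower, beside 30.6% higher and 32% lower of all genes. LGR4, a relative of LGR5 that also binds R-spondins, rose by 1.14, from 12.24 and 12.25 to 13.38 and 13.40. TPBG, a membrane protein that dampens LRP6 signalling, also rose by 1.14. In planar cell polarity, the branch that orients cells in a sheet, VANGL2 rose by 1.69 and CELSR2 fell by 1.79 on the log2 scale, and 2 of 9 genes were higher and 2 lower.

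In the cytoplasm, 7 of 23 genes were higher and 10 lower, beside 30.6% higher and 32% lower of all genes. BTRC, which recognizes marked beta-catenin for degradation, fell by 1.34 on the log2 scale. FRAT1 and FRAT2, which bind GSK3, fell by 1.18 and 1.28, with -0.29 on a second FRAT1 probe. FRAT1 too passed the filter through the control arrays, being well above background on 1 of the 2 PAK1 shRNA arrays, and ranged from -2.70 to -0.63 over the alternatives. CSNK1E, a casein kinase, rose by 1.11 on 3 arrays. Of 13 nuclear cofactors, 4 were higher and 7 lower. The corepressors TLE3 and TLE4 went apart, with -1.82 on 3 arrays for TLE3 and 1.99 for TLE4 (2.62 on a second probe). PYGO1, a coactivator of beta-catenin, had -1.91, but passed the filter through the control arrays and was well above background on 1 of the 2 PAK1 shRNA arrays, and its value ranged from -3.74 to -1.06 over the alternatives. CHD8, a chromatin remodeller that binds beta-catenin, had 1.23.

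Genes described as targets of the pathway did not move one way. Of 23 listed, 22 were tested, with a median log2 fold change of -0.01. Of the 22, 9 were higher, 4 were lower and 9 did not pass, beside 30.6% higher and 32% lower of all genes. PLAUR, the urokinase receptor, had the largest rise, from 10.45 and 10.57 to 14.39 and 14.81, a log2 fold change of 4.08 (SE 0.14, adjusted p = 2.3e-06 by limma). SOX9, a progenitor factor, rose by 1.35, and MYC and CCND1 both by 0.64. SP5, a transcription factor that is a direct target in many tissues, fell by 1.22 on the log2 scale, from 8.22 and 8.34 to 7.05 and 7.08, with values from -1.72 to -0.71 over the alternatives. Many of these genes also answer to other pathways.

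**Figure D3:**
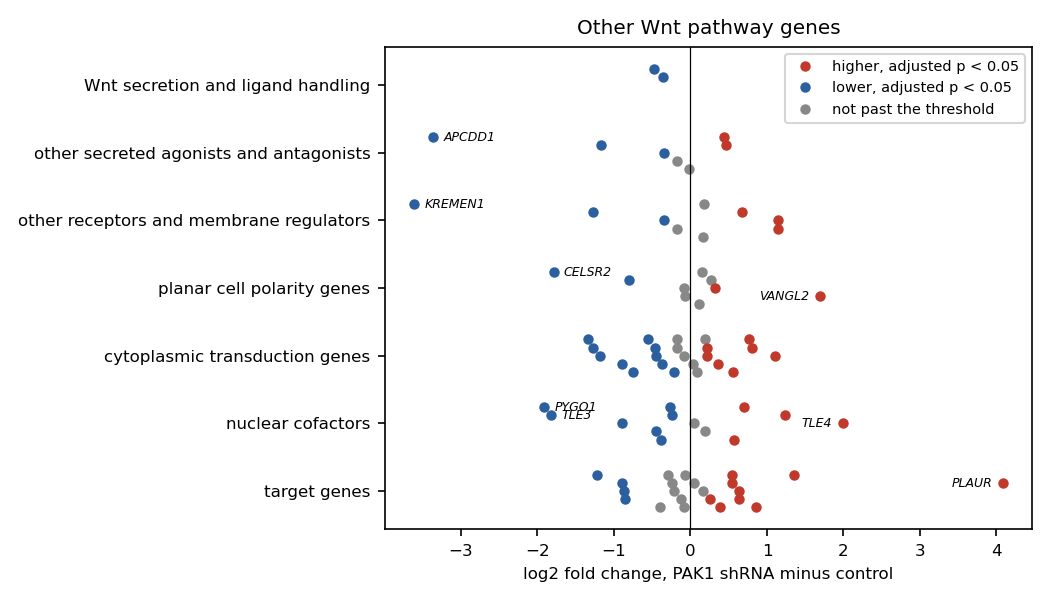
Log2 fold change (horizontal axis, PAK1 shRNA minus control) of 85 other genes of the Wnt pathway, in 7 lists by function. Each point is 1 gene, red higher, blue lower and grey not past the threshold, with names for changes of at least 1.5 and the vertical offset within a list only for legibility. Each list but the ligand handling genes holds points on both sides of 0.

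Markers of cell types were set beside these results. All 8 basal mammary epithelial markers were well above background on all arrays. In PAK1 shRNA cells 5 of them were lower and 2 higher, beside 32% lower and 30.6% higher of all genes. The mean level of the 8 markers per array was 14.51 and 14.41 in control cells and 14.01 and 14.02 in PAK1 shRNA cells. KRT5, KRT14, KRT17, TP63 and EGFR were lower, from -1.20 for KRT5 to -0.56 for EGFR, while CDH3 at 0.86 and KRT6A at 0.28 were higher and ITGA6 did not pass. The mean of the 6 luminal markers with values on all arrays ranged from 9.13 to 9.16 over the 4 arrays, but single luminal markers moved in both directions. FOXA1 (1.48) and KRT18 (0.47, on 3 arrays and left out of the mean) were higher, KRT19 (-1.02) and GATA3 (-0.49) were lower, ESR1 and KRT8 did not pass, and PGR was at background. That of 7 mesenchymal markers was 8.95 and 8.85 against 9.30 and 9.30, with COL1A2 and COL3A1 at background. LUM (1.79), COL1A1 (0.87) and DCN (0.87) were higher, PDGFRB (-0.58) was lower, and VIM (-0.21) did not pass. Of the 6 immune and endothelial markers, all well above background on all arrays, 1 was higher (CD14, 1.23 on 3 arrays, at 14.22 and 14.16 against 15.42), 1 was lower (PECAM1, -1.56, from 8.72 and 8.87 to 7.24 on both PAK1 shRNA arrays) and 4 did not pass. Of the last, PTPRC, CD3E and CDH5 read between 7.02 and 8.80, although they mark blood and endothelial cells, so the flag alone does not show that a gene was expressed. The same limit holds for called Wnt genes that read in or below this range, among them WNT2B, WNT5B, WNT6, WNT7B, WNT10B, FZD7, FZD9, FZD10, TCF7 and TCF7L1. The part of these marker shifts in the results for the Wnt genes was not tested.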

How the data were processed

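The human arrays were analysed, 2 of control and 2 of PAK1 shRNA cells, grouped by their labels. The mouse arrays of the study were not analysed here. The deposited spot files hold the intensity that the authors obtained per spot from Agilent Feature Extraction (version 9.5 in the submitters' processing notes, 9.5.3.1 in the file header), without normalization between arrays. A table of log2 values that the authors also deposited was used as an alternative. Its values correlated with those used here at r of 0.9995 to 0.9996 per array over 23239 probes. The study's methods name normexp, quantile normalization and limma for its arrays.

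The members and lists were chosen with earlier results of these data known. Mean spot intensity and median local background were corrected with normexp (offset 50), fitted on each array on the spots without a background flag, since a fit on all spots gave a background mean of -666 and -740 on the control arrays against -10.7 and -10.2 on the PAK1 shRNA arrays, and the fit used gave -9.19, -12.1, -10.4 and -9.78. Control spots were dropped, arrays were quantile normalized, flagged spots were left out, spots of a probe were averaged, and each gene was represented by its probe of highest mean. limma 3.58.1 (R 4.3.3) was run with lmFit and eBayes and no covariates, and the p-values of further probes are adjusted over all probes. All members are named, and of the other lists the genes past the threshold that changed by 1 or more on the log2 scale. Some others (PORCN, WLS, MYC, CCND1 and markers) were named after their values were seen. Genes are named as in the array design, 1 list gene was matched through an older symbol, and probe coordinates are those of the files (hg19). Promoters came from RefSeq (GRCh38.p14), and no annotation of hg19 was used here. The fit was run on simulated data with independent noise, in which 200 of 21023 genes were changed, a share far below the 62.5% called here. It recovered 100% of the changes of 1 and 83% of those of 0.5 on the log2 scale, and also called 30 unchanged genes. In this run the unchanged genes were a larger share of the calls than the threshold of 0.05 allows on average. The noise was drawn with the spread that limma had estimated from these arrays. Alternatives covered the background step, offset, normalization, signal column, flags, filter, probe rule, threshold, test, the authors' values, the replicate block and each array left out.

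Deviations of same-numbered arrays from their group means were unrelated (r = 0.0077 across 26303 probes). The values thus showed no pairing by replicate number, but they cannot tell whether same-numbered samples were prepared together.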

Additional observations from a re-analysis of the deposited data

How the results depend on the processing

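Over the alternatives run, leaving aside the 2-fold threshold, 7 to 13 Wnt genes were higher and 10 to 20 lower. No called Wnt gene changed sign. The unpaired test of the study's general statistics section, which uses no shared spread, left 10 Wnt genes lower, 4179 genes higher and 4553 lower over all genes, and 19 other pathway genes lower. At the 2-fold threshold the counts were 4 higher and 8 lower for the Wnt genes, 1936 and 1999 for all genes, and 8 and 11 for the other pathway genes. With the replicate block, 11 Wnt genes were higher and 19 lower. Without each array in turn, the spread of a lone array being taken from the other group, 8 to 11 Wnt genes were higher and 16 to 18 lower, 5571 to 6222 genes were higher and 5954 to 6529 lower over all genes, and 22 to 27 other pathway genes were higher and 24 to 28 lower. WNT10B, WNT6, FZD10, FZD2, FZD8, LRP6 and TCF7L1 no longer passed under the unpaired test only. WNT5A, WNT7B, FZD9, SFRP1 and AXIN1 were lost under it and under further alternatives, while WNT1, WNT7A, FZD6 and DKK2 passed under some. SOX9 was lost under the unpaired test. LRP5, called lower here, had no value on control array 1. LRP5 was therefore not tested under the unpaired test or without control replicate 2, and 38 Wnt genes were tested in each. WNT1, WNT4, WNT9B, DKK3, AXIN2, CTNNB1 and TCF7L2, none of them called here, lay on either side of 0 over the alternatives. The cause of these changes was not tested. Over all genes the median was 0.11 when the processed signal was scaled to its 75th percentile and 0.14 under median centring, with the Wnt median at -0.20 in both. Over the alternatives the log2 fold change ranged from -0.61 to -0.33 for WNT10B, -0.45 to -0.24 for WNT6, 0.23 to 0.93 for WNT7B, -0.83 to -0.26 for FZD10, 0.17 to 0.62 for FZD9, 0.29 to 0.67 for APC, -0.66 to -0.30 for TCF7, -1.38 to -0.54 for TCF7L1 and -2.32 to -1.15 for TLE3. No slide block could be fitted with 1 slide.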
